A study of Mus musculus with 20 samples.

Results

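DNA replication and G1-S genes are the genes whose products license replication origins, open and copy the DNA, supply nucleotides and carry cells out of G1 into S phase. Here 37 listed mouse genes of this kind were followed, each by the probe set that carries its symbol alone and had the highest mean over the arrays. All 37 were measured and passed the filter on dim genes, among 18194 genes measured and 13479 tested. They were described on 20 Affymetrix expression arrays of cells sorted from mouse bone marrow. HSC (hematopoietic stem cells, 2 arrays), MPP (multipotent progenitors, 2), LMPP (lymphoid-primed multipotent progenitors, 2), CLP (common lymphoid progenitors, 3), GMP (granulocyte-monocyte progenitors, 3), CD4 T cells (2) and pro-B cells (2) came from wild-type C57bl/6 mice. Mature NK cells came from 129 mice that were all Rag2--, and were either Ets1-- (Ets1-deficient, 2 arrays) or Ets1++ (Ets1-present, 2 arrays). All mice were 8 to 14 weeks old. Strain, the absence of Rag2 and cell type therefore cannot be told apart between NK cells and the other groups, and the sources used here do not give the sort markers or say that replicates came from separate animals. P-values then measure the spread between these samples, which may be technical.

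Before S phase the origin recognition complex, Cdc6 and Cdt1 load the Mcm2 to Mcm7 helicase ring onto DNA, the step called licensing. At the G1-S boundary cyclin E and the Cdc7-Dbf4 kinase activate the loaded helicase together with Cdc45 and the GINS complex, and the polymerases then copy both strands. Many of these genes are classical targets of the E2F transcription factors, so their transcripts are widely used as a readout of cycling cells. In adult marrow, HSC and mature T cells are known to be mostly quiescent, whereas pro-B cells and many progenitors divide.

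Promoter sequence is shown for members whose window holds a match to the E2F-type motif, since many genes of this kind are known E2F targets. RefSeq promoter windows of GRCm38.p6 (250 bases before to 50 after the annotated start) were given for 32 of the 37 members. The letters TTTCCCGC, TTTGGCGC, TTTCGCGC and TTTGCCGC were searched on both strands, and a match is a description of the letters, not a binding site. At least 1 match was found in 12 of the 32 members (37.5%), against 704 of 27025 genes with a window (2.605%). These 12 were Mcm3, Mcm5, Mcm6, Mcm7, Cdc6, Cdt1, Orc1, Pola1, Pold1, Rfc3, Uhrf1 and Lig1, with 18 matches in all. TTTCGCGC was found in 7 members, TTTCCCGC and TTTGGCGC in 5 each, and TTTGCCGC in 0. The 250 bases before the start of Cdc6 (chr11:98907901-98908150, + strand), Mcm5 (chr8:75109259-75109508, + strand) and Mcm6 (chr1:128359706-128359955, − strand) are given 5′ to 3′, with each match in capitals. Cdc6 loads the helicase, and Mcm5 and Mcm6 are subunits of it. Cdc6 held 1 match, beginning 138 bases before the start. Mcm5 held 2 that overlap, at 153 and 149 bases before it, and Mcm6 held 3, of which those at 110 and 106 bases overlap and the third lies at 47 bases.
Cdc6: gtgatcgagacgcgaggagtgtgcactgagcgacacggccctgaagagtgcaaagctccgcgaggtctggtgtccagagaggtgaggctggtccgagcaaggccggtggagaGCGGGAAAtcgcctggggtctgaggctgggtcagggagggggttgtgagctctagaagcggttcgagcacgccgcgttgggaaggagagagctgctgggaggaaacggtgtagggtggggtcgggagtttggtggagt
Mcm5: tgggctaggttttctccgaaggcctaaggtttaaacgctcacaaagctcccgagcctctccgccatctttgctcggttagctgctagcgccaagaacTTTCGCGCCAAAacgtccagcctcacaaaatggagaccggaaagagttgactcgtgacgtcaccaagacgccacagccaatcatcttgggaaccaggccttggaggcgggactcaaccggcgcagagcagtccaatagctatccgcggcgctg
Mcm6: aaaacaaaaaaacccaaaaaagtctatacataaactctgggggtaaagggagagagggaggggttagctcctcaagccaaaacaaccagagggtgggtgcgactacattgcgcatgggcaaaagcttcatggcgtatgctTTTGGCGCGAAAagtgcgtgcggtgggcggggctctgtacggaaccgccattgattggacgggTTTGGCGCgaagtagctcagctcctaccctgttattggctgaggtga

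Shorter stretches show the matches of other members, again in capitals. Orc1 (chr4:108579417-108579444, + strand) begins its match 27 bases before the start, Pola1 (chrX:93632276-93632303, − strand) 138 bases before it, and Uhrf1 (chr17:56304118-56304145, + strand) 185 bases before it. Rfc3 (chr5:151651201-151651228, − strand) begins its match 10 bases before the start, and a second match follows next to it at the start itself.
Orc1: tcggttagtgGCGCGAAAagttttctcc
Pola1: tcatcacaggGCGCCAAAtgcactcccg
Uhrf1: ccgagtcgggTTTCGCGCgcccaggcgt
Rfc3: cgtcgcacgcTTTCGCGCtcGCGGGAAA
The 20 other members with a window held no such match, a statement about these letters in these windows alone. Among 42 other replication genes with a window 19 held a match (45.238%), and among 21 mitotic genes 1 did (4.762%).

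Levels are log2 of the deposited RMA intensity, and differences are log2 differences of group means with the standard error (SE) of the fit. A gene was called where its limma p, adjusted over all 13479 genes tested by the Benjamini-Hochberg method, was below 0.05. Levels of different genes cannot be compared, because each rests on its own probes. Of the 37 members 35 differed among the 9 groups, where the same F test called 78.0% of all genes. Slbp (adjusted p = 0.0817) and E2f1 (adjusted p = 0.106) did not pass on the probe sets used. When all probe sets of a gene were averaged, all 36 members then tested passed. In bulk samples a smaller share of cycling cells and less RNA per cell cannot be told apart.

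Mean levels were lowest in CD4 T cells for 27 members. The exceptions were Mcm2, Mcm4, Rrm2, Tyms, Cdc7 and Rfc4, lowest in HSC, and Pcna, Dbf4, Rfc3 and Rpa2, lowest in CLP. No single group was highest for most members. Pro-B cells were highest for 15, GMP for 9, Ets1-deficient NK cells for 6 and LMPP for 5, while Chaf1b peaked in HSC and E2f1 in MPP. Each gene was also set against its mean of the 9 group means, and the median of the 37 centred values was taken on each array. That median was -1.12 and -0.59 in HSC, 0.14 and 0.15 in MPP, 0.34 and 0.22 in LMPP, and -0.61, 0.26 and -0.67 in CLP. It was 0.71, 0.54 and 0.49 in GMP, 0.57 and 0.35 in Ets1-deficient NK cells, 0.16 and 0.13 in Ets1-present NK cells, -1.44 and -1.57 in CD4 T cells, and 0.81 and 1.15 in pro-B cells. Both pro-B arrays stood above, and both CD4 T arrays below, all arrays of the other groups, and the CLP arrays split, with array 2 above 0 and the other two below.

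**Figure D1:**
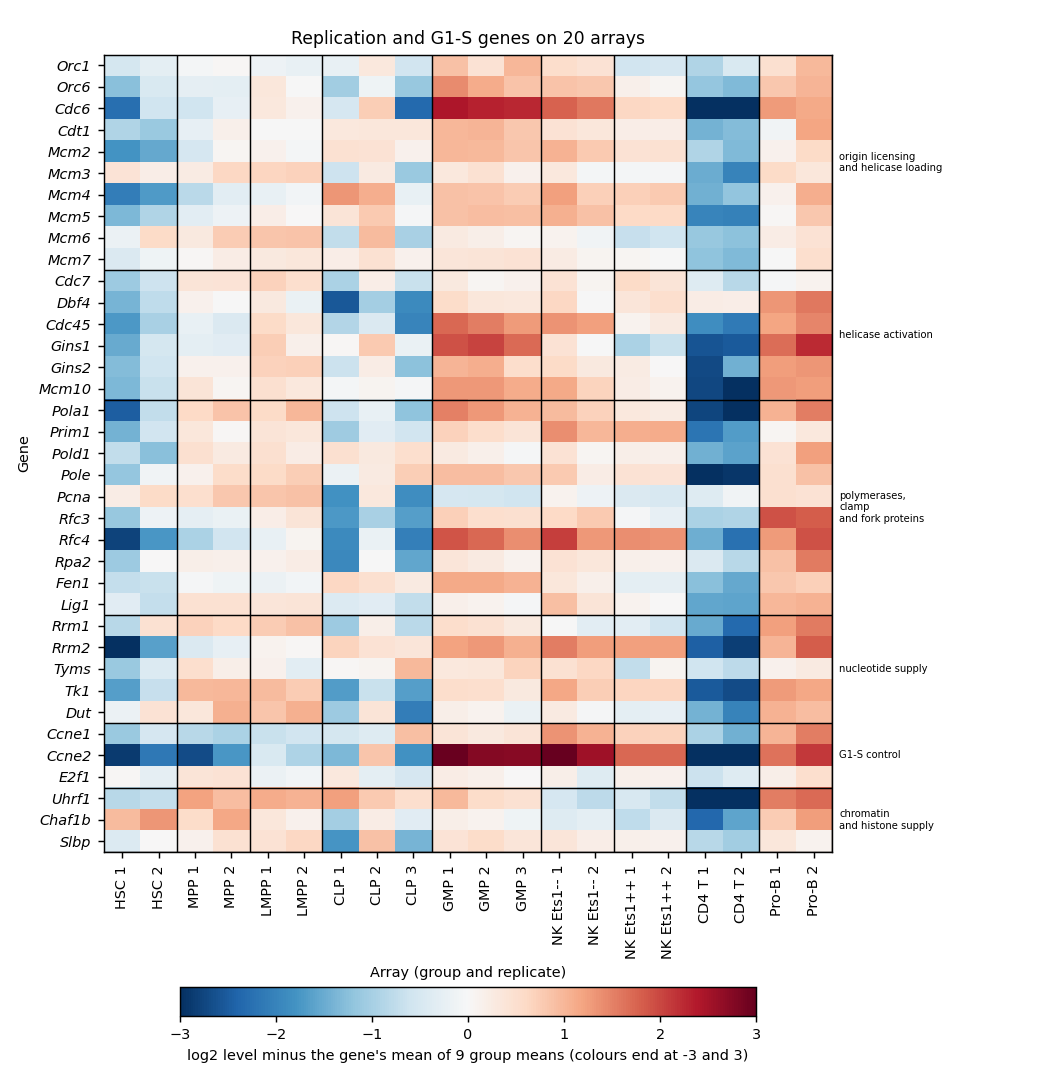
Level of the 37 members (rows, in 6 role groups) on the 20 arrays (columns), as log2 level minus the gene's mean of the 9 group means; colours end at -3 and 3. The CD4 T columns are the lowest for 27 members by group mean, and CLP arrays 1 and 3 are low for many genes that are near their mean on CLP array 2.

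Arrays differed in the gap between 3' and 5' signal of the array's own control probes, and the cause of this gap was not tested. The actin 3' signal exceeded the 5' signal by 6.46, 6.68 and 6.44 log2 units in GMP and by 5.20, 3.26 and 5.27 in CLP, against 0.98 to 4.07 on the other arrays. The root-mean-square standard deviation (SD) of the members was 0.742 in CLP and 0.603 in HSC, against 0.130 to 0.334 in the other groups. The fit used 1 pooled error, so CLP and HSC values are less certain than their SE states. Marker lists were checked for HSC, CLP (early lymphoid list), GMP, pro-B, CD4 T and NK cells, and none was set for MPP or LMPP alone. These markers were highest in their population, the NK markers in either NK group. The exceptions were Slamf1 of the HSC list and Il7r of the early lymphoid list, which were highest in CD4 T cells.

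Among the licensing genes Cdc6 spanned the widest range of group means. Its log2 level was 4.93 and 6.60 in HSC, 6.60 and 6.94 in MPP, 7.51 and 7.32 in LMPP, and 6.67, 7.93 and 4.84 in CLP. It was 9.62, 9.50 and 9.44 in GMP, 8.97 and 8.77 in Ets1-deficient NK cells, 7.80 and 7.77 in Ets1-present NK cells, 3.79 and 3.55 in CD4 T cells, and 8.47 and 8.33 in pro-B cells. GMP lay above and CD4 T cells below every array of the other groups, and the CLP arrays were scattered. Mcm5, a subunit of the helicase ring, ranged over 2.98 log2 units of group means, and was lowest in CD4 T cells. Mcm5 stood at 9.62 and 10.07 in HSC, 10.65 and 10.81 in MPP, 11.16 and 10.98 in LMPP, 11.35, 11.75 and 10.92 in CLP, and 11.84, 11.89 and 11.86 in GMP. Its other levels were 12.03 and 11.84 in Ets1-deficient NK cells, 11.56 and 11.57 in Ets1-present NK cells, 8.98 and 8.93 in CD4 T cells, and 11.00 and 11.77 in pro-B cells. LMPP, CLP and pro-B arrays overlapped in Mcm5, as did GMP and Ets1-deficient NK arrays. On the probe sets used, the smallest range of the licensing genes was that of Orc1, the largest subunit of the origin recognition complex, at 1.45 log2 units. This rests on the probe set. In CD4 T versus pro-B cells the other of Orc1 differed by -2.92, against -1.42 on the one used.

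Among the genes of helicase activation the widest ranges were those of Gins1, a GINS subunit, and Mcm10, which helps to activate the helicase. Gins1 was 6.28 and 7.26 in HSC, 7.50 and 7.46 in MPP, 8.53 and 7.94 in LMPP, and 7.83, 8.58 and 7.59 in CLP. Its levels elsewhere were 9.69, 9.82 and 9.48 in GMP, 8.22 and 7.79 in Ets1-deficient NK cells, 6.84 and 7.12 in Ets1-present NK cells, 5.19 and 5.26 in CD4 T cells, and 9.46 and 10.02 in pro-B cells. GMP and pro-B arrays overlapped at the top of its order, and CD4 T cells stood alone at the bottom. Dbf4, the activating subunit of the Cdc7 kinase, followed another order. It was 7.74 and 7.72 in CD4 T cells, within the range of LMPP (7.82 and 7.33) and just above MPP (7.66 and 7.52), and its lowest group mean was that of CLP, with 4.97, 6.51 and 5.61.

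Pola1, the catalytic subunit of DNA polymerase alpha, which starts new strands, had the widest range of the fork genes. It was 5.26 and 7.0 in HSC, 8.33 and 8.58 in MPP, 8.31 and 8.71 in LMPP, 7.12, 7.51 and 6.51 in CLP, and 9.25, 9.03 and 8.77 in GMP. It was 8.68 and 8.42 in Ets1-deficient NK cells, 8.05 and 7.97 in Ets1-present NK cells, 4.98 and 4.63 in CD4 T cells, and 8.77 and 9.27 in pro-B cells. All CD4 T arrays lay below every other array, HSC array 1 came next, and GMP and pro-B cells overlapped. Pcna, the sliding clamp that holds polymerases on DNA, did not follow this order. Pcna was 11.56 and 11.92 in HSC, 11.85 and 12.15 in MPP, 12.16 and 12.22 in LMPP, and 9.51, 11.64 and 9.48 in CLP. Its level was 10.82, 10.81 and 10.74 in GMP, 11.45 and 11.17 in Ets1-deficient NK cells, 10.90 and 10.86 in Ets1-present NK cells, 10.94 and 11.22 in CD4 T cells, and 11.81 and 11.78 in pro-B cells. CD4 T cells thus held Pcna above all GMP arrays, and LMPP arrays were the highest of all 20.

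Of the genes of nucleotide supply Rrm2, the regulated subunit of ribonucleotide reductase, ranged most. It was 5.66 and 8.05 in HSC, 9.26 and 9.43 in MPP, 9.80 and 9.73 in LMPP, 10.35, 10.13 and 10.06 in CLP, and 10.89, 10.98 and 10.75 in GMP. It was 11.21 and 10.95 in Ets1-deficient NK cells, 10.93 and 10.90 in Ets1-present NK cells, 7.23 and 6.85 in CD4 T cells, and 10.71 and 11.51 in pro-B cells. HSC array 1 lay below both CD4 T arrays and HSC array 2 above them. On this probe set the stages HSC, MPP, LMPP and CLP did not overlap in that rising order. The step from LMPP to CLP rests on the probe set, since the other 2 of Rrm2 were called lower in CLP (-2.59 and -1.92). Tyms, thymidylate synthase, was dim, with a mean of 3.90 over the 20 arrays and above the array median on 13 of them. Another probe set of Tyms also carries the symbol of a second gene and was not used.

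Cyclin E2 (Ccne2), which activates Cdk2 at the end of G1, had the widest range of group means of all 37 members, at 6.01 log2 units. Its level was 2.69 and 3.41 in HSC, 2.88 and 3.80 in MPP, 5.09 and 4.64 in LMPP, 4.22, 6.40 and 3.73 in CLP, and 8.52, 8.31 and 8.29 in GMP. Further levels were 8.82 and 8.09 in Ets1-deficient NK cells, 7.28 and 7.27 in Ets1-present NK cells, 2.40 and 2.47 in CD4 T cells, and 7.18 and 7.68 in pro-B cells. The levels of HSC, MPP and CD4 T cells and of CLP array 3 were below their array medians, which were 3.78 to 4.04 over the 20 arrays, so differences of Ccne2 against these groups rest on dim signal. The same holds for Cdc6 on both CD4 T arrays and for Rfc3 on CLP arrays 1 and 3. Its paralog Ccne1 spanned 2.47 log2 units of group means. On the probe sets used E2f1, which encodes a transcription factor that drives many of these genes, had the smallest range of all 37, at 0.93. E2f1 was 5.81 and 5.52 in HSC, 6.16 and 6.22 in MPP, 5.62 and 5.71 in LMPP, 6.10, 5.50 and 5.29 in CLP, and 6.01, 5.95 and 5.80 in GMP. It was 5.96 and 5.41 in Ets1-deficient NK cells, 5.93 and 5.91 in Ets1-present NK cells, 5.14 and 5.39 in CD4 T cells, and 5.97 and 6.29 in pro-B cells. This small range rests on the probe set. In CD4 T versus pro-B cells the other 2 of E2f1 differed by -1.74 and -0.22, against -0.87 on the one used.

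In the chromatin group Uhrf1, which guides maintenance DNA methylation at the fork, was 7.39 and 7.51 in HSC, 9.43 and 9.15 in MPP, 9.35 and 9.27 in LMPP, and 9.46, 9.01 and 8.73 in CLP. It was 9.19, 8.77 and 8.68 in GMP, 7.72 and 7.45 in Ets1-deficient NK cells, 7.74 and 7.49 in Ets1-present NK cells, 4.86 and 5.14 in CD4 T cells, and 9.77 and 9.93 in pro-B cells. Uhrf1 in both NK groups overlapped with HSC. Chaf1b, a subunit of the chaperone that places histones on new DNA, was 8.03 and 8.39 in HSC, 7.61 and 8.22 in MPP, 7.41 and 7.19 in LMPP, and 6.04, 7.29 and 6.73 in CLP. It was 7.25, 7.17 and 6.94 in GMP, 6.68 and 6.76 in Ets1-deficient NK cells, 6.31 and 6.64 in Ets1-present NK cells, 4.70 and 5.48 in CD4 T cells, and 7.84 and 8.32 in pro-B cells. HSC, MPP and pro-B arrays overlapped at the top of the Chaf1b order.

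**Figure D2:**
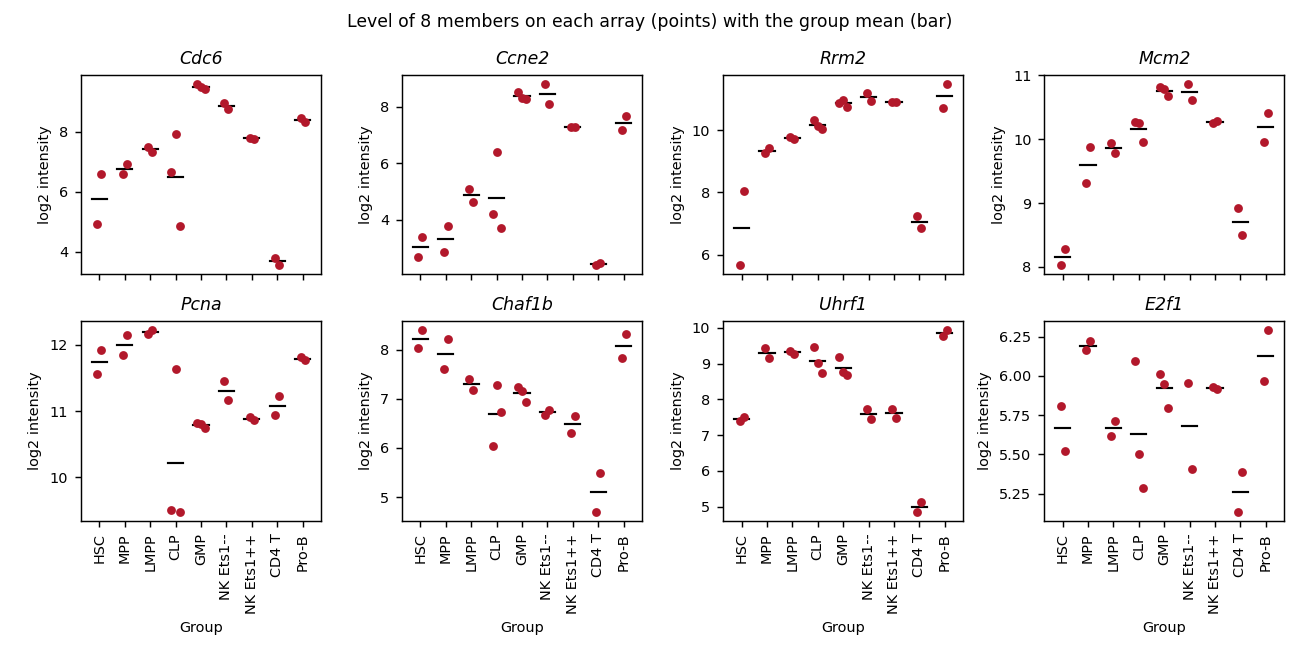
Log2 intensity of 8 members on each array (points) with the group mean (bar), by group. Cdc6, Ccne2 and Rrm2 vary over several log2 units, Pcna is low on 2 of the 3 CLP arrays and in GMP, and Chaf1b is highest in HSC. E2f1 stays between 5.14 and 6.29 on the probe set used.

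The first comparison asked how MPP, the next stage, differ from HSC. Of the 37 members 10 rose in MPP and 0 fell, where 1.94% of all genes were called higher and 3.99% lower. The median difference of the members was 0.96, against -0.14 over all genes, and 35 of 37 were positive. Both MPP arrays lay above both HSC arrays for 29 members and below them for 0, against 16.2% and 30.7% of all genes. The 10 came from 5 of the 6 role groups: Mcm2 of licensing, Cdc7 and Mcm10 of helicase activation, Pola1, Prim1, Pold1 and Lig1 of the fork, Rrm2 and Tk1 of nucleotide supply, and Uhrf1.

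The largest rise was in Rrm2, by 2.49 ± 0.47 log2 units (SE, n = 2 each, adjusted p = 0.00309), or 5.61-fold. Pola1 rose by 2.33 ± 0.43 (adjusted p = 0.00231) and Tk1, thymidine kinase of the salvage pathway, by 2.15 ± 0.34 (adjusted p = 0.000694). Tk1 was 9.08 and 9.10 in MPP, against 6.46 and 7.42 in HSC. Uhrf1 rose by 1.84 ± 0.28 (adjusted p = 0.000497), Mcm2 by 1.44 ± 0.26 and Pold1, the catalytic subunit of polymerase delta, by 1.37 ± 0.28. Mcm2 was 9.31 and 9.88 in MPP, against 8.03 and 8.29 in HSC. A further 10 members had an unadjusted p below 0.05 alone, among them Mcm4, Mcm5, Cdc45 and Cdt1. Ccne1 (-0.08) and Chaf1b (-0.29) were the members with a negative difference.

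HSC array 1 was the lower HSC array for 32 members, and without it the differences of Rrm2 and Pola1 were 1.29 and 1.46. Erythroid markers (4 of 6 listed genes measured) summed to intensities of 94.7 and 229.3 in MPP, against 170.7 and 851.1 in HSC, with array 1 the lower, and granulocyte-monocyte markers (5 of 6) to 6380.9 and 4940.1 in MPP, against 2214.3 and 2127.5 in HSC. Their part in the result was not tested. Without MPP replicate 1 the count was 5, after repeated quantile normalization it was 22, and in a fit on these 4 arrays alone it was 1. Uhrf1 was called under every alternative of the fit, but its other probe set differed by 0.27 and was not called, and of 8 tests of other probe sets of the called members 7 lost the call.

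LMPP were set against MPP to ask what changes at the next step. No member was called in either direction, where 1.71% of all genes were called (0.942% higher and 0.772% lower), and 1 member had an unadjusted p below 0.05. The median difference was 0.20, against 0.05 over all genes. The largest differences were those of Ccne2, at 1.52 ± 0.57 (adjusted p = 0.335), and Cdc45, at 0.78 ± 0.38 (adjusted p = 0.596). Ccne2 was 5.09 and 4.64 in LMPP, against 2.88 and 3.80 in MPP, and the arrays did not overlap, with both MPP levels dim. With array weights Ccne2 was called (adjusted p = 0.0131), and centring each array on housekeeping genes turned the median of the members to -0.08.

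CLP were then set against LMPP, the step at which lymphoid commitment deepens. Of the members 17 fell and 1 rose in CLP, where 19.2% of all genes were called lower and 6.96% higher, and the median was -0.88, against -0.08 over all genes. By role, 7 of 10 fork genes, 4 of 6 genes of helicase activation and 3 of 5 of nucleotide supply fell, against 3 of 10 licensing genes (Mcm3, Mcm6 and Orc6), and 0 of 3 in G1-S control and 0 of 3 in the chromatin group. These counts rest on the probe sets used. In licensing, other probe sets were called lower for Mcm2 (-1.21), Cdt1 (-1.11), Mcm5 and Mcm7, while that of Mcm6 was 0.47 and not called. In the chromatin group the other probe set of Uhrf1 was called lower (-1.20) and that of Slbp higher (1.55). In G1-S control another probe set of E2f1 was called higher (0.81). The difference between role groups was not tested.

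Tk1 fell by 2.20 ± 0.31 log2 units, the largest fall (adjusted p = 8.38e-05). It had 6.43, 7.43 and 6.45 in CLP, against 9.06 and 8.87 in LMPP. Pcna fell by 1.98 ± 0.42 (adjusted p = 0.00218), Dut, which removes dUTP, by 1.88 ± 0.46, and Dbf4 by 1.88 ± 0.35. Rfc3, a subunit of the loader that places Pcna on DNA, fell by 1.75 ± 0.28, with 3.75, 4.52 and 3.83 in CLP, against 5.68 and 5.87 in LMPP. Cdc45, part of the active helicase, fell by 1.56 ± 0.35, with 5.60, 6.04 and 4.49 in CLP, against 7.06 and 6.82 in LMPP. The single member that rose was Fen1, the nuclease that trims Okazaki fragments, by 0.59 ± 0.18 (adjusted p = 0.022), with 11.91, 11.77 and 11.56 in CLP, against 11.11 and 11.21 in LMPP. Mcm4 had a larger positive difference (0.88) with an unadjusted p below 0.05 alone.

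These CLP values depended on the array and on the probe set. CLP arrays 1 and 3, with the larger actin 3' to 5' gap, both lay below array 2 for 26 members, among them Tk1, Pcna, Dut and Dbf4. With CLP array 2 as the single CLP array, which assumes that it varies like the other groups, 5 members were called: Tk1 (-1.54), Rfc3 (-1.26) and Dbf4 (-1.07) lower, and Mcm4 (1.23) and Ccne2 (1.53) higher. Pcna was then -0.55, Dut -0.57 and Cdc45 -0.89, none called. Centring on housekeeping genes moved every gene of this comparison by 0.70 and gave 11 members higher and 6 lower. The 6 that stayed lower were Tk1, Pcna, Dut, Dbf4, Rfc3 and Cdc45, and the median of the members was -0.18, against 0.62 over all genes. Repeated quantile normalization gave 5 higher and 13 lower. Of 27 members with another probe set tested, 9 had another probe set called in the direction opposite to the difference on the probe set used. Fen1 was one of them, at -1.53 ± 0.51 on a dimmer probe set, and Cdc45 another, at 0.84 ± 0.29. Rrm2 was 0.42 ± 0.44 on the probe set used and -2.59 ± 0.47 and -1.92 ± 0.56 on its other 2. The count was 5 without LMPP replicate 2, 7 without LMPP replicate 1 and 10 without CLP replicate 1.

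GMP were set against LMPP as the myeloid branch. Here 14 members rose and 1 fell in GMP, where 16.0% of all genes were called higher and 13.0% lower. The median difference was 0.27, against -0.04 over all genes, and with averaged probe sets it turned to -0.01. Licensing genes made up 7 of the 14: Cdc6, Cdt1, Orc1, Orc6, Mcm2, Mcm4 and Mcm5. Gins1, Cdc45 and Mcm10 of helicase activation, Rfc4 and Fen1 of the fork, and both cyclin E genes made up the rest, with 0 of 5 genes of nucleotide supply.

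Ccne2 rose by 3.51 ± 0.52 log2 units (SE, n = 3 GMP and 2 LMPP, adjusted p = 5.76e-05), or 11.4-fold. Cdc6 rose by 2.10 ± 0.57 (adjusted p = 0.00924) and Rfc4, another subunit of the clamp loader, by 1.74 ± 0.45. Rfc4 was 9.84, 9.67 and 9.33 in GMP, against 7.72 and 8.04 in LMPP. Gins1 rose by 1.43 ± 0.33, Fen1 by 1.25 ± 0.18 (adjusted p = 3.92e-05) and Cdc45 by 1.05 ± 0.35. Pcna fell by 1.40 ± 0.42 (adjusted p = 0.0161), and its GMP and LMPP arrays did not overlap. Within the helicase ring Mcm2 had a difference of 0.90, Mcm4 of 0.99 and Mcm5 of 0.79, all called, and Mcm3 (-0.36) and Mcm6 (-0.67) were not called. These signs rest on the probe set, since the other probe set was -0.70 for Mcm2 and 0.65 for Mcm6, and averaged probe sets gave 0.10 for Mcm2 and -0.11 for Mcm5.

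The GMP arrays had the largest actin 3' to 5' gap of all groups, and its part in the result was not tested. Another probe set of Mcm5, dimmer than the one used, differed by -1.41 ± 0.48 and was called lower, and Mcm7 and Prim1 also had a probe set called opposite to their difference. The count was 4 without LMPP replicate 1, 3 without LMPP replicate 2, 9 without GMP replicate 1 or 2, and 9 with averaged probe sets (7 higher and 2 lower). Ccne2 and Fen1 kept their call under every alternative of the fit, but the other probe set of Fen1 (0.80) was not called and Ccne2 had no other tested. Repeated quantile normalization gave 10 higher and 4 lower.

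Pro-B cells were set against CLP to ask what changes on entry to the B lineage. In pro-B cells 23 members rose and 0 fell, where 21.1% of all genes were called higher and 14.0% lower. The median was 1.28, against -0.02 over all genes. Both pro-B arrays lay above all 3 CLP arrays for 25 members and below them for 0, against 24.3% and 22.5% of all genes. Helicase activation had 5 of 6 members higher, the fork 7 of 10 and licensing 4 of 10, and the difference between role groups was not tested. The Mcm2, Mcm4, Mcm5, Mcm6 and Mcm7 subunits did not pass on the probe sets used, but both other probe sets of Mcm5 (1.08 and 2.10) and 2 of the 3 others of Mcm7 were called higher, as was the other of Cdt1 (1.06).

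Rfc3 rose by 3.31 ± 0.28 log2 units (SE, n = 2 pro-B and 3 CLP, adjusted p = 1.02e-07), with 7.38 and 7.31 in pro-B cells, against 3.75, 4.52 and 3.83 in CLP, where arrays 1 and 3 are dim. Dbf4 rose by 3.27 ± 0.35 (adjusted p = 1.58e-06), with 8.84 and 9.10 in pro-B cells, against 4.97, 6.51 and 5.61 in CLP. Rfc4 rose by 2.98 ± 0.45, Ccne2 by 2.65 ± 0.52, Tk1 by 2.56 ± 0.31 and Cdc45 by 2.42 ± 0.35. The pro-B and CLP arrays did not overlap for any of these 6 genes. Rrm2 differed by 0.93 on the probe set used, which was not called, and by 5.12 ± 0.47 and 2.95 ± 0.56 on its other 2 probe sets.

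With CLP array 2 as the single CLP array, under the same assumption, 14 members were called, and Ccne2 (1.03) was not. Rfc4 was then 1.80, still called. Cdc45 had another probe set at -0.91 ± 0.29, called in the opposite direction, and Mcm7 and E2f1 also had such a probe set. Centring on housekeeping genes moved every gene by -0.42 and left 18 members higher and 0 lower. In all, 11 of the 23 were called under every alternative of the fit. Of these, 5 (among them Rfc3 and Rfc4) were called on their other probe sets as well, 5 (among them Dbf4 and Tk1) had no other tested, and Cdc45 was the exception.

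CD4 T cells were set against pro-B cells as a mature against a dividing lymphoid population. In CD4 T cells 34 members fell and 0 rose, where 11.8% of all genes were called lower and 17.0% higher. The median was -2.43, against 0.00 over all genes, and both CD4 T arrays lay below both pro-B arrays for all 37 members, against 30.0% of all genes. Pcna (-0.71), Cdc7 (-0.63) and Slbp (-1.16), which binds the end of histone mRNAs, did not pass.

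Ccne2 fell by 4.99 ± 0.57 log2 units (SE, n = 2 each, adjusted p = 1.4e-06), Uhrf1 by 4.85 ± 0.28 (adjusted p = 1.87e-10) and Cdc6 by 4.74 ± 0.63. Gins1 fell by 4.52 ± 0.36, Mcm10 by 4.44 ± 0.31 and Pola1 by 4.21 ± 0.43. Mcm10 was 4.76 and 3.89 in CD4 T cells, against 8.79 and 8.74 in pro-B cells. On the probe sets used, the differences of the Mcm2 to Mcm7 subunits were -1.47 (Mcm2) to -2.43 (Mcm5), beside a median of -2.43 over the 37 members. Their other probe sets gave -1.18 (Mcm2) to -3.18 (Mcm5). The members called under every alternative of the fit numbered 29, of which 19 were called on all their other probe sets and 8 had no other tested. Mcm10 (-0.85) and Cdc45 (0.0017) were not called on their other probe set. When all probe sets of a gene were averaged Mcm10 was -1.79 and Pola1 -2.24, both called. Erythroid markers summed to 210.7 and 668.2 in CD4 T cells, against 61.1 and 64.4 in pro-B cells, led by Alas2 at log2 levels of 7.33 and 9.24 in CD4 T cells. Of the 3 erythroid markers tested 1 was called higher in CD4 T cells and 0 lower. The part of these markers in this result was not tested.

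HSC and CD4 T cells were the lowest groups, and their difference was asked next. In HSC 17 members were higher and 1 lower than in CD4 T cells, where 16.7% of all genes were called higher and 14.0% lower. The median was 0.70, against 0.09 over all genes. Chaf1b was higher in HSC by 3.12 ± 0.37 log2 units (SE, n = 2 each, adjusted p = 1.85e-06), or 8.67-fold. Pole, the catalytic subunit of polymerase epsilon, was higher by 2.51 ± 0.35, with 7.10 and 8.14 in HSC, against 4.90 and 5.33 in CD4 T cells. Uhrf1 was higher by 2.45 ± 0.28, Mcm10 by 2.17 ± 0.31, Cdc6 by 2.09 ± 0.63 and Mcm3 by 2.06 ± 0.34. Mcm3 was 9.53 and 9.30 in HSC, against 7.62 and 7.09 in CD4 T cells.

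The member that was lower in HSC was Dbf4, with a difference of -1.28 ± 0.38 (adjusted p = 0.0148), with 6.14 and 6.76 in HSC, against 7.74 and 7.72 in CD4 T cells. Within the helicase ring Mcm3 (2.06), Mcm5 (0.89), Mcm6 (1.37) and Mcm7 (0.98) were called higher in HSC, and Mcm2 (-0.55) and Mcm4 (-0.58) were not called. Rrm2 (-0.18), Tyms (-0.07), Cdc7 (-0.24) and Rfc4 (-0.40) were negative as well, without a call. Apart from Tyms (-0.09 on its other probe set), the sign of these uncalled genes rests on the probe set: the other probe sets gave 0.56 for Mcm2, 0.18 for Mcm4, 0.05 and 0.44 for Rrm2, 0.08 for Cdc7 and 0.37 for Rfc4. Cdc6 was 1.26 and not called without HSC replicate 2, and Dbf4 was -0.50 and not called with the mean of its probe sets. The count was 10 without HSC replicate 2 and 11 without CD4 T replicate 2. Erythroid markers of the 2 groups summed to 170.7 and 851.1 in HSC, against 210.7 and 668.2 in CD4 T cells, but different genes made up these sums. In HSC 2 were called higher and 1 lower. Klf1 was 6.61 and 9.47 in HSC, against 4.48 and 4.87 in CD4 T cells. Alas2 was 2.79 and 2.63 in HSC, against 7.33 and 9.24 in CD4 T cells. The part of these markers in the result was not tested.

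Ets1-present NK cells were set against CD4 T cells, both mature lymphocytes. In these NK cells 28 members were higher and 0 lower, where 14.3% of all genes were called higher and 10.2% lower. The median was 1.62, against 0.02 over all genes, and both NK arrays lay above both CD4 T arrays for 34 members, against 36.4% of all genes. Ccne2 was higher by 4.84 ± 0.57 log2 units (SE, n = 2 each, adjusted p = 2.97e-06), Cdc6 by 4.12 ± 0.63 (adjusted p = 5.87e-05) and Rrm2 by 3.87 ± 0.47. Pole was higher by 3.56 ± 0.35, with 8.68 and 8.66 in Ets1-present NK cells, against 4.90 and 5.33 in CD4 T cells. Mcm10 was higher by 3.33 ± 0.31 and Tk1 by 3.26 ± 0.34. The 9 members not called were Mcm6, Pcna (-0.20), Tyms, Dbf4, Orc1, Rfc3, Rpa2, Slbp and E2f1. The calls of 23 members held under every alternative of the fit. Of these, 8 were called on all their other probe sets, 7 had no other tested and 8 lost the call on at least 1, among them Cdc45 (-0.20) and Mcm7 (as low as -0.16). Granulocyte-monocyte markers summed to 659.9 and 677.7 in Ets1-present NK cells, against 361.2 and 361.5 in CD4 T cells, with 4 of 5 called higher and 1 lower. Erythroid markers summed to 50.7 and 57.0 in Ets1-present NK cells, against 210.7 and 668.2 in CD4 T cells. Alas2 led this difference, at log2 levels of 2.57 and 2.82 in Ets1-present NK cells and 7.33 and 9.24 in CD4 T cells. Of the 3 erythroid markers tested 1 was called lower in these NK cells and 0 higher. The part of the granulocyte-monocyte and erythroid lists in the result was not tested. Strain and Rag2 differ between these groups together with the cell type.

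**Figure D3:**
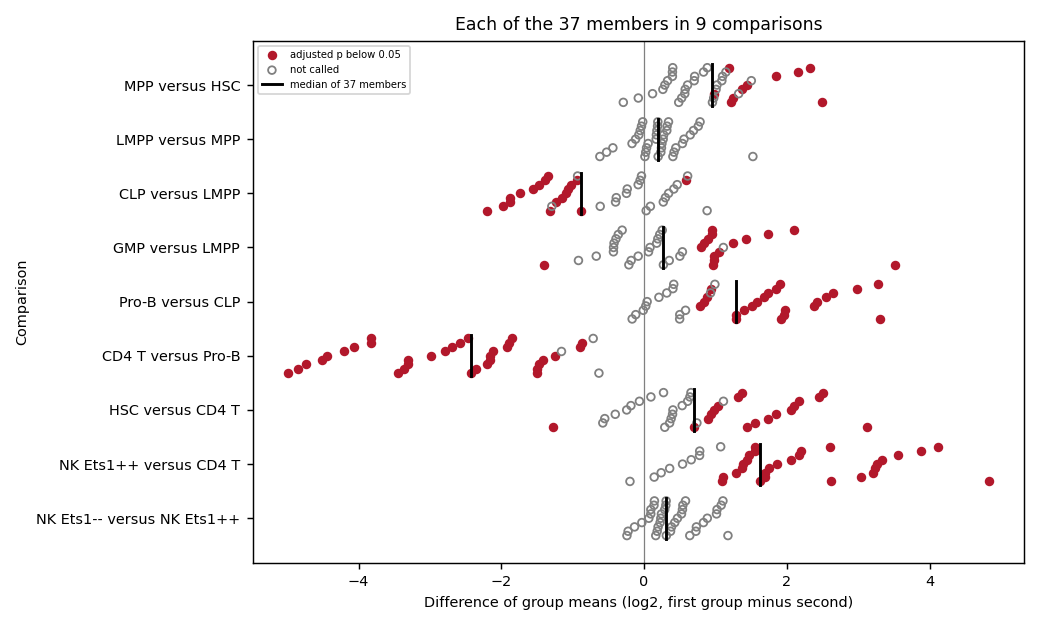
Difference of group means (log2, first group minus second) of each of the 37 members in the 9 comparisons, with filled points for adjusted p below 0.05 and a bar at the median. All points lie below 0 in CD4 T versus pro-B cells, and no point is filled in LMPP versus MPP or between the NK genotypes. Neighbouring comparisons share a group, so their values are not independent.

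Ets1-deficient and Ets1-present NK cells were compared last, the genotype contrast of the series. On the probe sets used no member was called in either direction by limma, where 3.81% of all genes were called (1.59% higher and 2.23% lower). An unadjusted p below 0.05 was found for 9 members. The median difference was 0.31, against 0.01 over all genes, and 33 of 37 were positive. Both Ets1-deficient arrays lay above both Ets1-present arrays for 27 members and below them for 0, against 28.4% and 27.0% of all genes. The largest differences were those of Ccne2, at 1.17 ± 0.57 (SE, n = 2 each, adjusted p = 0.408), and Cdc45, at 1.10 ± 0.38 (adjusted p = 0.142). Cdc45 was 7.81 and 7.71 in Ets1-deficient NK cells, against 6.57 and 6.74 in Ets1-present NK cells. Orc1 was 5.81 and 5.72 in Ets1-deficient NK cells, against 4.71 and 4.79 in Ets1-present NK cells. The groups of both genes did not overlap. The other probe set of Orc1 differed by 1.55 and was called higher. Cdc7 (-0.22), Dbf4 (-0.13), E2f1 (-0.24) and Uhrf1 (-0.03) were the negative ones.

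Whether members passed between the NK genotypes depended on the fit and on the probe set. With array weights 12 were called higher, with the 4 NK arrays fitted by themselves 9, and with averaged probe sets 3 (Cdc45, Orc1 and Gins1), and these 3 were among the 12 and the 9 as well. Granulocyte-monocyte markers (5 of 6 listed genes measured) summed to 194.4 and 131.0 in Ets1-deficient NK cells, against 659.9 and 677.7 in Ets1-present NK cells, with 4 of 5 called lower. T lineage markers (6 of 6) summed to 371.9 and 393.1 in Ets1-deficient NK cells, against 224.2 and 258.4 in Ets1-present NK cells. Of these T lineage markers 2 had a positive and 4 a negative difference, with 1 called higher and a largest difference of 2.88. NK markers (5 of 6) summed to 18516.4 and 16656.1 in Ets1-deficient NK cells, against 12825.4 and 13975.8 in Ets1-present NK cells. This sum does not stand for the list, in which 2 markers (Prf1 and Gzma) were higher and 3 (Ncr1, Eomes and Tbx21) lower in Ets1-deficient NK cells, with 0 called. The part of the first 2 lists in the differences was not tested.

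**Figure D4:**
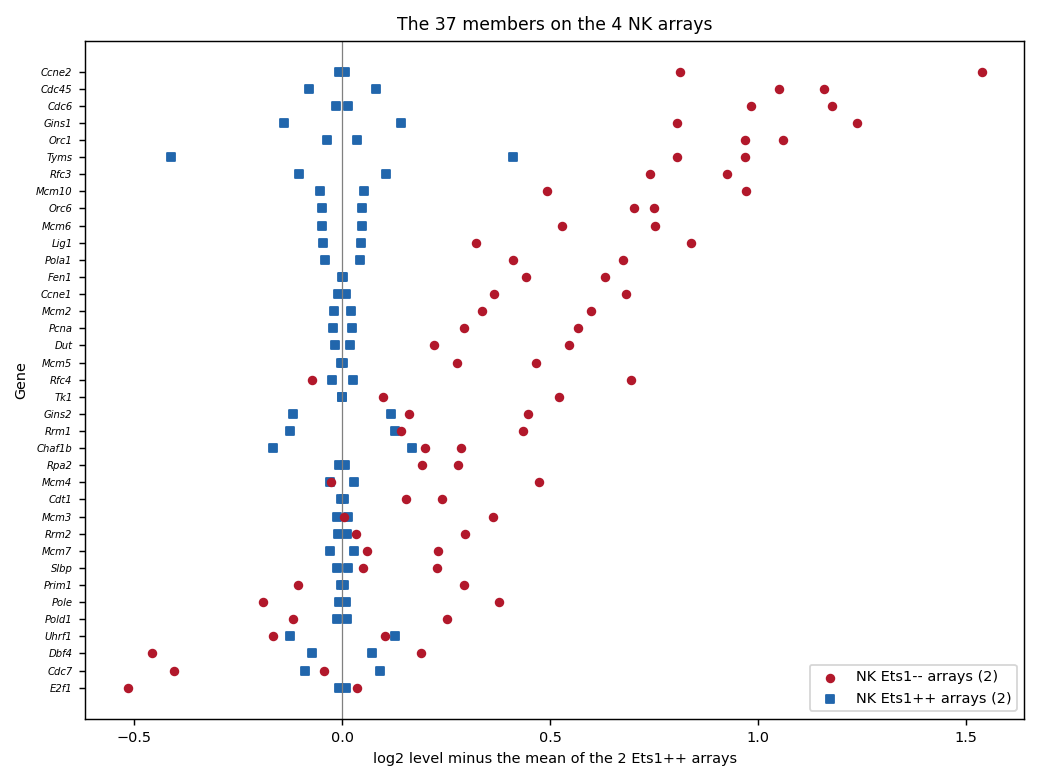
Log2 level of the 37 members on the 4 NK arrays, minus the mean of the 2 Ets1-present arrays, ordered by the difference of the genotypes. Most Ets1-deficient points lie to the right of 0, and none of the differences was called on the probe sets used.

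The members were set beside 52 other replication genes and 23 genes of mitosis and G2-M, since cycling cells hold both. Mitotic genes spread further than the members. Their median centred level was -3.05 and -0.83 in HSC, 0.81 and 0.59 in MPP, 0.95 and 0.90 in LMPP, and -1.51, -0.85 and -1.62 in CLP. It was 0.40, 0.41 and 0.22 in GMP, 1.15 and 0.90 in Ets1-deficient NK cells, 1.02 and 0.89 in Ets1-present NK cells, -2.65 and -2.92 in CD4 T cells, and 1.70 and 2.10 in pro-B cells. The members lay above the mitotic genes on each HSC, CLP, GMP and CD4 T array, and below them on each array of the other groups.

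In MPP versus HSC 22 of 23 mitotic genes and 11 of 52 other replication genes rose and 0 of either list fell, with Nusap1, a spindle protein, at 3.65 ± 0.57 and Ccna2, cyclin A2 of S phase and G2, at 3.74 ± 0.69. In CLP versus LMPP 22 mitotic genes fell and 0 rose, with Kif20a at -3.24 ± 0.51, while 19 other replication genes fell and 3 rose, with Rnaseh2a at -2.23 ± 0.55. GMP versus LMPP had 5 mitotic genes lower and 0 higher, with Ube2c, a ubiquitin-conjugating enzyme of mitotic exit, at -2.77 ± 0.55, but 19 other replication genes higher and 4 lower, with Dna2, a nuclease of the fork, at 2.34 ± 0.28. Pro-B cells versus CLP had 23 of 23 mitotic genes and 36 of 52 other replication genes higher, with 1 other replication gene lower. In CD4 T versus pro-B cells all 23 mitotic genes and 41 other replication genes fell and 1 other replication gene rose. In HSC versus CD4 T cells 9 mitotic genes were higher and 0 lower, and 14 other replication genes were higher and 5 lower, with Donson, a replication fork protein, at -2.61 ± 0.25. Ets1-present NK versus CD4 T cells had 21 mitotic genes higher, and 29 other replication genes higher and 2 lower. Between the NK genotypes 0 mitotic genes were called, against 0 at an unadjusted p below 0.05, and of the other replication genes Exo1, an exonuclease of DNA repair, was higher in Ets1-deficient NK cells by 1.80 ± 0.37.

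**Figure D5:**
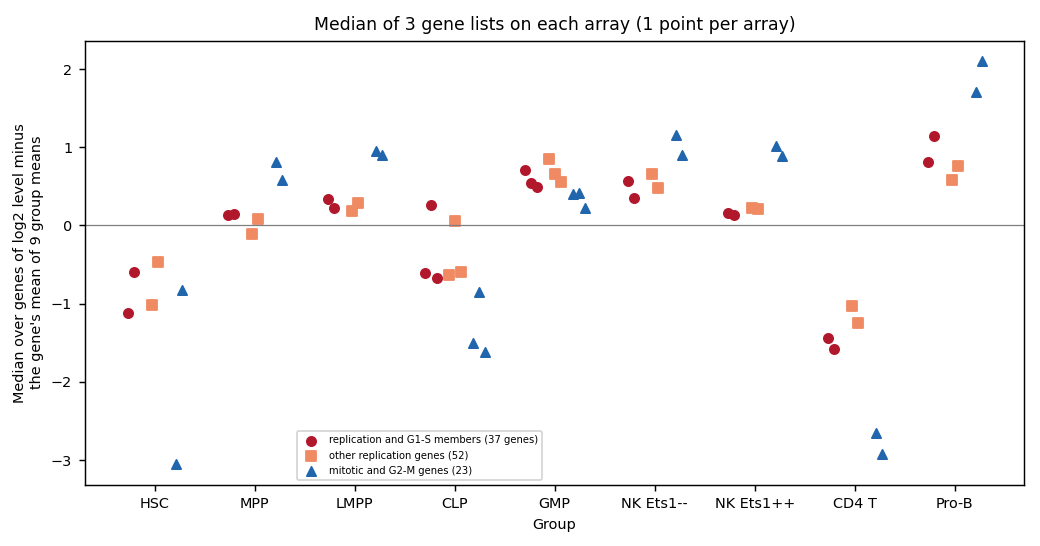
Median of the members (37 genes), other replication genes (52) and mitotic genes (23) on each array, as log2 level minus the gene's mean of the 9 group means; 1 point per array. The mitotic genes fall to -3.05 on HSC array 1, and in GMP the mitotic points lie below those of the replication lists.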

How the data were processed

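RNA amplified from sorted cells was labelled with biotin and hybridised to Affymetrix arrays, per the labels' protocols. The authors deposited 1 linear intensity per probe set and array for 45101 probe sets, made with RMA per the submitters' processing notes (no version is named there). The design had assumed log2 values, so log2 was taken here from the deposited intensity. Array medians were 3.78 to 4.04 log2.

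Probe sets were named from the platform annotation: 34958 had 1 symbol, 932 several and 9211 none, and 34754 were matched by Entrez ID to RefSeq names (GRCm38.p6). A gene's single-symbol probe set with the highest mean stood for it. Of the 37 members 30 had several probe sets, up to 5, and 11 were read by probe sets with an _s_at or _x_at suffix, which can match related transcripts.

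The 13479 genes that exceeded the array median on 2 or more arrays were tested, and 4715 dim genes were left out. One limma 3.58.1 model (R 4.3.3, lmFit and trended eBayes) covered the 9 groups and left 11 residual degrees of freedom. Benjamini-Hochberg adjustment ran over all genes tested, with a threshold of 0.05. The code was tested on simulated data. The number of arrays limits the precision.

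Members, lists, comparisons and motifs were chosen with earlier results of these data known. The text names up to 6 called members per direction and comparison by size of change (the 2 largest where fewer than 2 passed), the members of widest range per role, E2f1, Pcna and Uhrf1, and exceptions to the common order. Up to 2 called genes per comparison are named from other lists. Genes named for their probe sets or array-dependent values, and single values of other members, were chosen after their values were seen. Some genes of the other lists are not reported here. Alternatives changed the filter, probe set, normalization, model, arrays or threshold.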

Additional observations from a re-analysis of the deposited data

How the results depend on the processing

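Counts of called members stayed within 1.5 times the reported count under the alternatives run, apart from those that follow. Averaging a gene's probe sets gave 9 in GMP versus LMPP and 3 between the NK genotypes. A threshold of at least 1 log2 unit gave 7 in GMP versus LMPP. Array weights gave 1 in LMPP versus MPP and 12 between the NK genotypes, and repeated quantile normalization gave 22 in MPP versus HSC. Fits on the compared arrays alone gave 1 in MPP versus HSC, 2 in CLP versus LMPP, 25 in GMP versus LMPP, 13 in pro-B cells versus CLP and 9 between the NK genotypes, with fewer arrays behind the error. CLP array 2 as the single CLP array gave 5 in CLP versus LMPP and 14 in pro-B cells versus CLP, also 14 with pro-B array 2 as the single pro-B array; this last setting was chosen after seeing the data. Leaving out 1 array gave 5 to 10 in MPP versus HSC, 0 to 0 in LMPP versus MPP, 5 to 22 in CLP versus LMPP, 3 to 11 in GMP versus LMPP, 16 to 26 in pro-B cells versus CLP, 29 to 33 in CD4 T versus pro-B cells, 10 to 19 in HSC versus CD4 T cells, 25 to 26 in Ets1-present NK versus CD4 T cells and 0 to 0 between the NK genotypes. Directions could move while the count held. In CLP versus LMPP, centring on housekeeping genes gave 11 higher and 6 lower, against 1 higher and 17 lower as reported. Of 129 tests of other probe sets of called members 72 held, 42 lost the call and 15 changed sign. Values of members called as reported that changed sign were, with the mean of probe sets, Fen1 in CLP versus LMPP (-0.47) and Mcm5 in GMP versus LMPP (-0.11), and Mcm6 in CLP versus LMPP with CLP array 2 alone (0.11). On other probe sets they were Mcm3 (0.13), Mcm6 (0.47), Cdc45 (0.84) and Fen1 (-1.53) in CLP versus LMPP, Mcm2 (-0.70), Mcm5 (-1.41) and Cdt1 (-0.092) in GMP versus LMPP, Mcm3 (-0.41), Mcm10 (-0.11) and Cdc45 (-0.91) in pro-B cells versus CLP, Cdc45 (0.00169) in CD4 T versus pro-B cells, Gins1 (-0.32) in HSC versus CD4 T cells, and Mcm7 (-0.16), Cdc45 (-0.20) and Gins1 (-0.61) in Ets1-present NK versus CD4 T cells. The cause was not tested. With the replicate number as a block the counts were 14, 0, 16, 14, 21, 34, 19, 28 and 0 in the 9 comparisons as reported in turn, and 35 over the 9 groups; same-numbered arrays of paired groups deviated together with r of -0.10 to 0.37 over genes, from at most 2 or 3 numbers a pair of groups, so the numbers are not taken to pair samples.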
